A study of Mus musculus with 30 samples.

Results

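Fbn2 encodes fibrillin-2, a large secreted glycoprotein. It was taken as the gene whose probe sets carry the symbol Fbn2 and no other, which makes it 1 of 18193 genes measured with a single-gene probe set. It lies on mouse chromosome 18 and has 2 probe sets, 1454830_at, the brighter on average and used for the main values, and 1422831_at. Fbn2 was chosen by its measured rise over the time course, which is among the largest, so its changes with time are given as a description, without a test. The related gene Fbn1 was not analysed here, so whether it follows Fbn2 or the collagens of the feeder layer is not addressed. Fibrillins polymerise end to end into extracellular microfibrils, beaded fibres that give tissues elasticity and form the scaffold on which elastin is laid down. Microfibrils also hold latent growth factors of the TGF-beta and BMP families, through latent TGF-beta binding proteins (LTBPs) and through direct contact with BMP prodomains. Fibrillin-2 is known mainly as the fibrillin of embryonic tissues.

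KH2 mouse embryonic stem cells, a line kept on a layer of feeder fibroblasts, were treated with retinoic acid (RA), a vitamin A derivative that drives these cells to differentiate, at 0.3 µM. RNA was hybridised to 30 arrays, 3 in each of 10 groups. The 12 h and 24 h times each have 2 groups, replicates A to C and replicates D to F. In order of time the groups are 8 h, 12 h A-C, 12 h D-F, 16 h, 24 h A-C, 24 h D-F, 36 h, 48 h, 60 h and 72 h. All groups are the same line on feeders, all but 8 h carry the label retinoic acid, and the 8 h group carries the label baseline. The labels do not say whether RA was present at 8 h, and no untreated arrays at later times were analysed here. Before lysis the cells were replated on gelatin for 30 minutes, and the labels differ on whether the cells that stuck or those drawn off gave the RNA.

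Values are log2 intensities as deposited, and array medians lay between 6.34 and 6.388. The spike-in difference BioDn 5' minus BioC 5' split the arrays into set 1 (8 h, 12 h A-C, 16 h and 24 h A-C, 12 arrays, 0.993 to 1.07) and set 2 (12 h D-F, 24 h D-F and all later times, 18 arrays, 1.34 to 1.63). Comparisons over time were therefore made within a set, and the letters were compared with each other at 12 h and 24 h. The labelled cell type was checked with stem cell markers, whose mean over 8 genes lay at 12.6 to 12.7 in the 8 h arrays. At 72 h against 12 h D-F, 7 of these 8 genes fell, Tdgf1, a co-receptor for Nodal, by 3.12 and Pou5f1, the Oct4 factor, by 1.96. A gene was called at a limma adjusted p under 0.05 over all 18193 genes. By this rule 60.6% of all genes were called at 72 h against 12 h D-F, with 26.2% higher, 34.5% lower and a median change of -0.0943.

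Fbn2 signal climbed through both array sets. On 1454830_at, the 8 h arrays read 5.82, 5.74 and 5.33, those of 12 h A-C 5.82, 6.00 and 5.66, those of 16 h 6.46, 6.67 and 6.53, and those of 24 h A-C 7.01, 7.71 and 7.13. The 12 h A-C arrays overlapped the 8 h arrays, while all 16 h arrays lay above both and all 24 h A-C arrays above the 16 h arrays. At 24 h A-C the mean was 7.28 ± 0.38, against 5.63 ± 0.26 at 8 h (SD, n = 3 each), higher by 1.65 ± 0.16 (SE), or 3.14-fold. That placed Fbn2 at rank 63 of 18193 genes ordered from the largest rise.

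In set 2, the 12 h D-F arrays read 6.98, 6.96 and 7.20, the 24 h D-F arrays 8.87, 8.92 and 9.23, and the 36 h arrays 10.33, 10.52 and 10.63. The 48 h arrays read 11.14, 11.02 and 10.62, the 60 h arrays 11.54, 11.79 and 11.76, and the 72 h arrays 11.84, 11.55 and 11.58. Every group lay wholly above the one before it, except that 48 h overlapped 36 h and 72 h overlapped 60 h. The 72 h mean was 11.66 ± 0.16, against 7.05 ± 0.14 at 12 h D-F (SD, n = 3 each), higher by 4.61 ± 0.16 (SE), a 24.5-fold difference and rank 14 of all genes.

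On 1454830_at in set 2, the steps between neighbouring times were largest between 12 h and 36 h. Fbn2 was higher by 1.96 at 24 h D-F than at 12 h D-F (rank 12), by 1.49 at 36 h than at 24 h D-F (rank 18), by 0.43 at 48 h than at 36 h (rank 753) and by 0.77 at 60 h than at 48 h (rank 243). Between 72 h and 60 h the difference was -0.04. Ordered by mean across both array sets, the groups ran 8 h, 12 h A-C, 16 h, 12 h D-F, 24 h A-C, 24 h D-F, 36 h, 48 h, 72 h and 60 h. The neighbours that overlapped in this order were 12 h A-C with 8 h, 24 h A-C with 12 h D-F, 48 h with 36 h, and 60 h with 72 h. Places between groups of different sets also hold the difference between the sets. On 1422831_at, 12 h D-F (5.63) lay below 16 h (5.75).

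The other probe set, 1422831_at, gave the same order of group means within each set. Its means were 5.31 ± 0.32 at 8 h, 5.32 ± 0.26 at 12 h A-C, 5.75 ± 0.06 at 16 h and 6.23 ± 0.08 at 24 h A-C (SD, n = 3 each). In set 2 they were 5.63 ± 0.13 at 12 h D-F, 7.75 ± 0.10 at 24 h D-F, 8.64 ± 0.20 at 36 h, 9.21 ± 0.20 at 48 h, 10.39 ± 0.31 at 60 h and 9.99 ± 0.43 at 72 h (SD, n = 3 each). At 72 h it was higher by 4.35 ± 0.18 than at 12 h D-F, and at 24 h A-C higher by 0.92 ± 0.18 than at 8 h (SE). Its step at 60 h against 48 h, 1.17, was larger than that at 36 h against 24 h D-F, 0.89. Over arrays, the probe sets correlated at r = 0.817 in set 1 (n = 12) and 0.980 in set 2 (n = 18). Their deviations from the group means had r = -0.128, so the spread between replicate arrays was not shared by the probe sets.

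**Figure D1:**
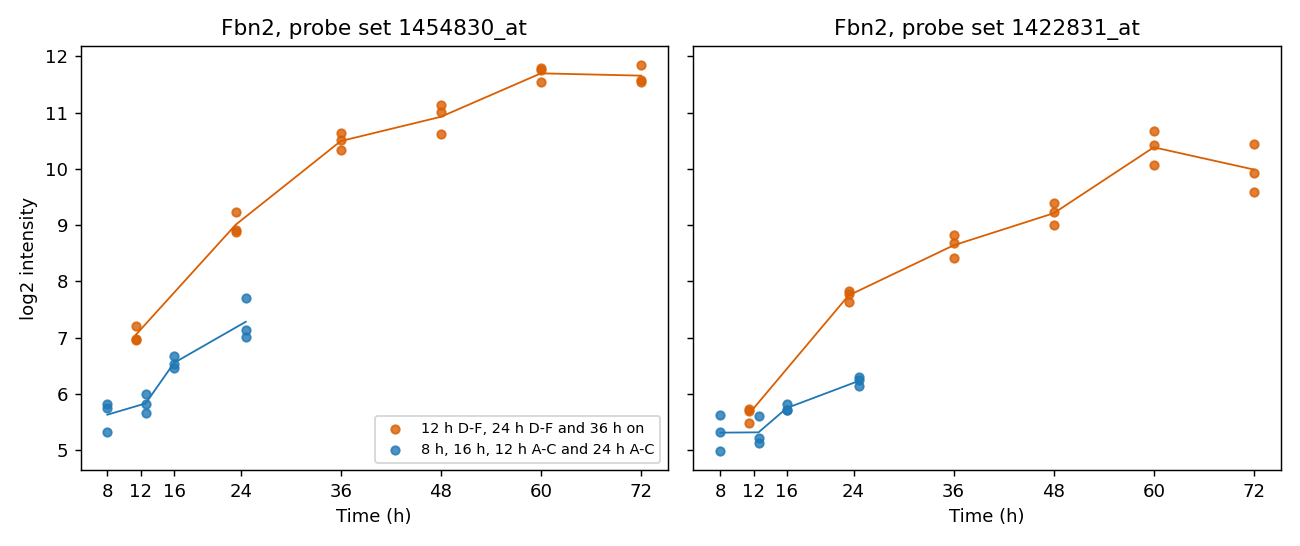
Fbn2 by time on each of its probe sets, as log2 intensity against hours, with 1 point per array and lines through the group means. Orange marks set 2 (12 h D-F, 24 h D-F and 36 h on) and blue marks set 1 (8 h, 16 h, 12 h A-C and 24 h A-C), with points at 12 h and 24 h moved apart slightly. The orange points lie above the blue ones at 24 h on both probe sets. Between 60 h and 72 h the curve flattens on 1454830_at (-0.04). On 1422831_at its mean is lower at 72 h (-0.40), with overlapping arrays.

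The replicate letters were compared at equal times, a contrast that is not a change with time, on arrays that also entered the time course. On 1454830_at, Fbn2 was 1.22 ± 0.16 (SE) higher in 12 h D-F than in 12 h A-C (limma adjusted p = 1.74e-06), with all 3 D-F arrays above all 3 A-C arrays. At 24 h it was 1.73 ± 0.16 (SE) higher in D-F than in A-C (limma adjusted p = 1.57e-08), again with no overlap. Among all genes 39% were called between the letters at 12 h, 17.2% higher in D-F, and 33.8% at 24 h, 13.3% higher in D-F. The change from 12 h to 24 h was larger in D-F than in A-C by 0.51 ± 0.23 (SE), which is given without a test because it holds the rise between those times.

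On the less bright probe set the difference between letters was larger at 24 h than at 12 h, where its signal was low. On 1422831_at, D-F was 0.32 ± 0.18 (SE) higher than A-C at 12 h, not called (limma adjusted p = 0.198) and with overlapping arrays. Its 12 h means, 5.32 in A-C and 5.63 in D-F, lay below the lowest array median, 6.34. The means of 1454830_at at 8 h, 5.63, and at 12 h A-C, 5.83, lay below that median too. Whether low signal hid a difference at 12 h on 1422831_at was not tested. At 24 h, D-F on 1422831_at was 1.52 ± 0.18 (SE) higher than A-C (limma adjusted p = 8.42e-07). The difference of the changes was 1.20 ± 0.26 (SE), also given without a test.

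Other gene lists were also compared between the letters. Of all 18193 genes, 3133 (17.2%) were higher and 3954 lower in D-F than in A-C at 12 h. At 24 h, 2422 (13.3%) were higher and 3719 lower. Of 10 neural markers, 5 were higher and 0 lower in 12 h D-F than in 12 h A-C, and 7 were higher and 1 lower at 24 h. Sox1, a SOX factor of neural progenitors, was higher by 2.44 at 12 h and 1.56 at 24 h, and Cdh2 (N-cadherin) by 1.77 and 1.72. Pax6, also on the neural list, was higher by 0.43 at 12 h and lower by 0.67 at 24 h (limma adjusted p = 0.000241 and 1.36e-06). Nes, Hes5, Dll1, Neurog2 and Ncam1 were not called at 12 h. Of 14 parietal endoderm genes, which embryonal cells turn on as they make the basement membrane of the yolk sac, 9 were higher at 12 h and 11 at 24 h, with 0 lower. Of 20 other fibroblast genes, 5 were higher and 1 lower at 12 h, and 7 higher and 0 lower at 24 h. Of 7 smooth muscle actin genes, 6 were higher and 0 lower at 12 h, and 2 higher and 1 lower at 24 h. Of the 8 feeder collagens limma called 0 at either time (at an unadjusted p under 0.05, 1 was lower at 12 h and 1 higher at 24 h), and of 8 stem cell genes 1 was higher and 1 lower at 12 h, and 2 were higher and 2 lower at 24 h. The letters also differ in array set, and the part of cell makeup, stage and array set in the Fbn2 difference cannot be told apart.

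Feeder fibroblasts make abundant fibrillar collagens, so 8 collagen genes of fibroblasts were set beside Fbn2 (Col1a1, Col1a2, Col3a1, Col5a1, Col5a2, Col6a1, Col6a2 and Col6a3). In bulk RNA, fewer cells of a type and less RNA per cell cannot be told apart. At 72 h against 12 h D-F, where Fbn2 was higher by 4.61, 7 of the 8 collagens rose, by 0.74 in Col6a2 to 4.04 in Col3a1, with a median of 2.41, and Col6a3 had 1.08 and was not called (limma adjusted p = 0.125). At 24 h A-C against 8 h, where Fbn2 was higher by 1.65, limma called 0 of the 8 collagens, also at an unadjusted p under 0.05, and 39.3% of all genes. Their median change was 0.34, beside -0.018 over all genes. In that comparison 8 of 20 other fibroblast genes and 5 of 7 smooth muscle actin genes were higher and none of either list was lower, where 23.5% of all genes were higher. Refitted on these 6 arrays alone, 5 of the 8 collagens were called higher.

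At 48 h against 36 h Fbn2 was higher by 0.43, with overlapping arrays, and the collagens rose. Col1a1, the main chain of type I collagen, read 11.65, 11.07 and 12.93 at 48 h, against 9.01, 10.13 and 10.53 at 36 h, a rise of 2.00 (limma adjusted p = 0.00358). Col3a1, of type III collagen, read 12.94, 12.50 and 13.73 at 48 h, against 10.30, 10.62 and 11.37 at 36 h, a rise of 2.29 (limma adjusted p = 1.08e-05). All 8 collagens rose at this step, by 0.74 to 2.29 with a median of 1.65, where 7.59% of all genes rose. Without 48 h C, 5 of the 8 did, with Col1a2 at 0.91, Col6a2 at 0.42 and Col6a3 at 0.93 no longer called. Fitted on the 36 h and 48 h arrays alone with the replicate letter as a block, since same-letter arrays deviated together at this step, 7 of the 8 collagens and 16 of the 28 microfibril genes described further on were called higher, and Col6a2 was not (limma adjusted p = 0.0649). Col1a2 was not called without 36 h A either (1.14), nor Col6a3 without 36 h A (1.33) or 36 h B (1.74).

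At 60 h against 48 h Fbn2 was higher by 0.77, with all 60 h arrays above all 48 h arrays. None of the 8 collagens rose at this step by limma, also at an unadjusted p under 0.05. Their changes ran between -1.58 and 0.06, with a median of -0.62. Col6a1 and Col6a2, chains of type VI collagen, fell by 0.96 and 0.78 (limma adjusted p = 0.0231 and 0.00576), where 13.8% of all genes fell, and neither was called without 48 h C (-0.54 and -0.47), nor Col6a1 without 60 h A (-0.71). Both steps use the 48 h arrays, so they are not independent of each other.

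**Figure D2:**
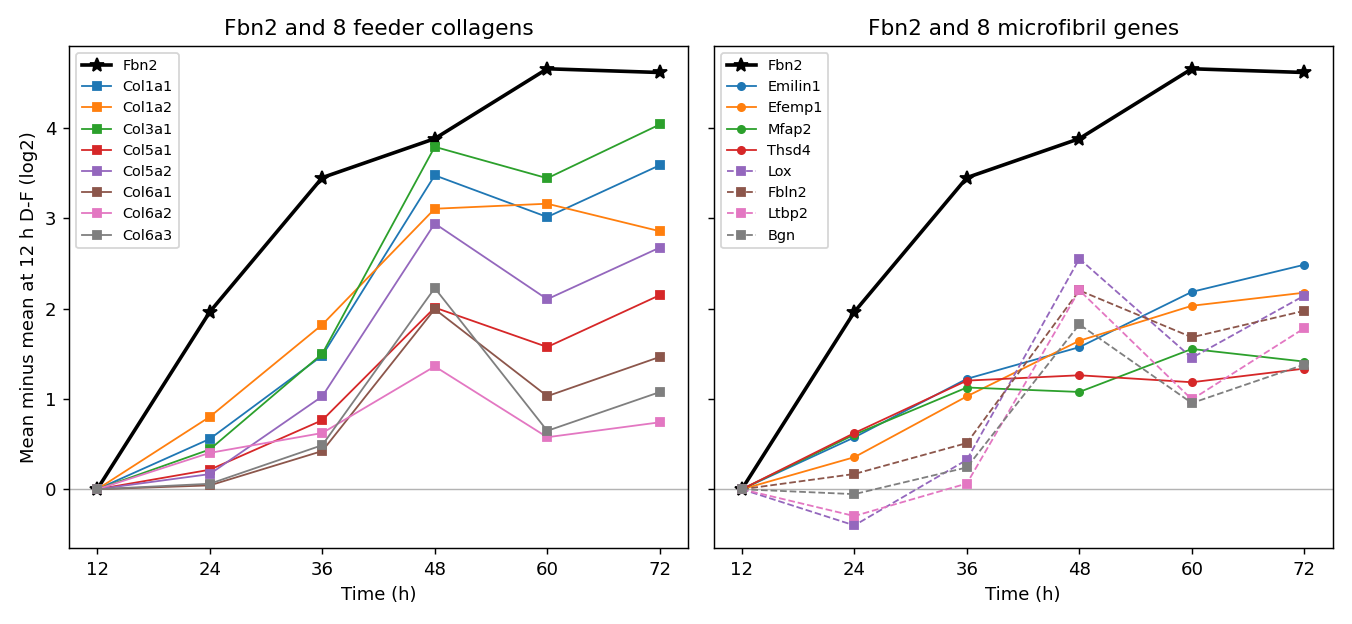
Group means from 12 h D-F to 72 h, as the log2 difference from the mean at 12 h D-F against hours, for Fbn2 (black) with 8 feeder collagens (left) and with 8 microfibril genes (right). On the right, solid lines are 4 genes nearer Fbn2 and dashed lines 4 nearer the collagens by correlation. With 1 array taken per group, Efemp1 (solid) stayed nearer Fbn2 in 1 of 3 draws. Fbn2 stands at 3.45 by 36 h, when the collagens stand between 0.42 and 1.82.

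Replicate arrays of a group differed less in Fbn2 than in the collagens in every group of set 2. Fbn2 spanned 0.25 to 0.51 within those groups and the mean of the 8 collagens 0.89 to 1.60. In set 1, Fbn2 spanned 0.21 to 0.71 and the collagen mean 0.05 to 0.51. At 48 h, array C had the lowest Fbn2 on the main probe set, 10.62 beside 11.14 in A and 11.02 in B. On the other probe set, array C had the highest Fbn2, 9.40 beside 9.00 in A and 9.24 in B. Array C also had the highest collagen mean, 11.88 beside 10.78 in A and 10.28 in B. On the main probe set, deviations from group means of Fbn2 and of the collagen mean had r = 0.155 over the 30 arrays. Those of Fbn2 on that probe set and of the neural mean had r = 0.645. Deviations on the main and the other probe set of Fbn2 had r = -0.128, so they were not shared by the probe sets.

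**Figure D3:**
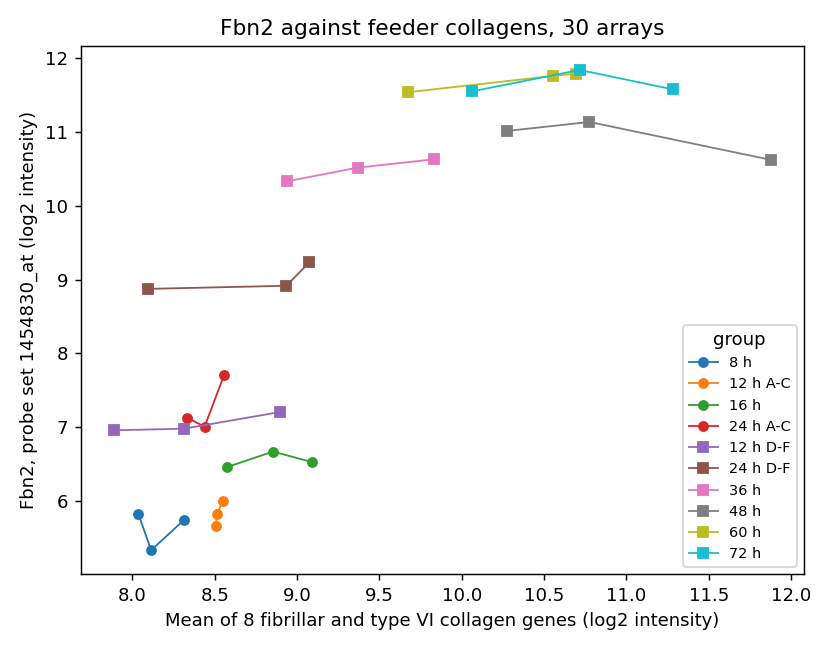
Fbn2 (log2 intensity of 1454830_at) against the mean of 8 feeder collagens (log2 intensity), with 1 point per array and a line joining the 3 arrays of each group. Circles are set 1 and squares set 2. Lines within set 2 groups run mostly sideways, with Fbn2 values 0.25 to 0.51 apart and collagen means 0.89 to 1.60 apart.

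Over the 10 group means, each centred on its array set, Fbn2 and the collagen mean had r = 0.845, with an SD of 0.107 when 1 array was taken per group. In set 1 alone r was 0.394 over 4 group means. Many genes share such a value. Of the 4110 genes whose group means span at least 1 log2, 993 had a higher r to Fbn2 than the collagen mean had, and 15.6% had an r of at least 0.9. Of 1251 genes that also were higher by at least 1 at 72 h than at 12 h D-F, 540 had an r of at least 0.9. By the same measure the mean of the 10 neural genes had r = 0.985, that of 14 parietal endoderm genes 0.928, that of 7 smooth muscle actin genes 0.870 and that of 20 other fibroblast genes 0.839, and that of the 8 stem cell genes -0.956. These values share the arrays and the passage of time, and are descriptions. The part of feeder content or of any other cell type in the Fbn2 level was not tested.

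The r of a list mean need not hold for its genes. Of the 10 neural genes, 3 had an r to Fbn2 of at least 0.9 (Zic1, Ncam1 and Cdh2), and Hes5, a target of Notch signalling, had 0.0813. At 72 h against 12 h D-F, 7 of 10 neural genes, all 14 parietal endoderm genes, 7 of 7 smooth muscle actin genes and 18 of 20 other fibroblast genes rose. None of the genes on these lists fell, and 26.2% of all genes were higher there. Zic1, a zinc finger factor of the dorsal neural tube, rose by 5.08, and Ncam1, a neural cell adhesion molecule, by 3.20. Sox17, an endoderm factor, rose by 2.89. Lum, the fibroblast proteoglycan lumican, stayed near the low end of the scale, with 5.53 at 72 h and 5.21 at 12 h D-F (change 0.32, not called). The list means per array lay at 9.05 to 9.21 at 72 h and 7.49 to 7.68 at 12 h D-F for neural genes, and at 9.54 to 10.3 and 7.79 to 8.27 for the other fibroblast genes.

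Of 28 measured genes that build, anchor or process microfibrils and elastic fibres, Fbn2 not counted, 19 rose at 72 h against 12 h D-F. Ltbp4 and Eln fell, and 7 were not called, with a median change of 1.05. Over all genes, 26.2% were higher there and 34.5% lower. At 24 h A-C against 8 h, 9 rose, 2 fell and 17 were not called, with a median of 0.18. Over all genes 39.3% were called there and 23.5% were higher, so the share of the 28 called was near that of all genes. Fbn2, at 4.61, had a larger change than any of the 28 in the first comparison, where the next was Mfap4 at 2.67, and at 1.65 stood below Fbln5 at 1.81 in the second. Fbn2 was chosen for its large rise, so its place among these genes is a description and not a finding. Of the 52 genes of the collagen, microfibril, growth factor and TGF-beta target lists that were called at 72 h against 12 h D-F, the size of 22 moved by more than 1.5 times when the mean of a gene's probe sets was used.

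Of the glycoproteins associated with microfibrils, Mfap2 and Mfap4 rose. Mfap2 (MAGP-1), a small glycoprotein on the beads of microfibrils, read 9.85, 9.75 and 9.79 at 72 h, against 8.28, 8.45 and 8.42 at 12 h D-F, a rise of 1.41 (limma adjusted p = 2.48e-13). It had -0.05 at 48 h against 36 h, not called, and rose by 0.48 at 60 h against 48 h (limma adjusted p = 0.000162). Averaging its probe sets gave rises of 0.72 and 0.27. Its r to Fbn2 was 0.988, against 0.801 to the collagen mean. Mfap4, a fibrinogen-like protein of elastic fibres, rose by 2.67 at 72 h, and Mfap5 (MAGP-2), the relative of Mfap2, had 0.34 there, not called.

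Emilin1, a glycoprotein at the interface of elastin and microfibrils, read 9.73, 9.42 and 9.64 at 72 h, against 7.07, 7.12 and 7.15 at 12 h D-F, a rise of 2.49 (limma adjusted p = 5.31e-16). Its relative Emilin2 rose by 0.66. Thsd4, the ADAMTS-like protein ADAMTSL6 that promotes fibrillin assembly, rose by 1.34 (0.69 with its probe sets averaged) and Efemp1 (fibulin-3) by 2.18. Emilin1, Thsd4 and Efemp1 had r to Fbn2 of 0.952, 0.970 and 0.937, against 0.875, 0.833 and 0.920 to the collagen mean.

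The latent TGF-beta binding proteins split. Ltbp1 read 9.68, 9.40 and 9.48 at 72 h, against 7.02, 7.02 and 7.41 at 12 h D-F, a rise of 2.37 (limma adjusted p = 1.3e-13), and rose at both 48 h against 36 h (0.92) and 60 h against 48 h (0.64). Ltbp1 rose by 1.55 at 72 h and by 0.58 at 48 h when its probe sets were averaged. Ltbp2, which competes with LTBP1 for fibrillin but does not hold TGF-beta, read 9.31, 8.06 and 9.49 at 72 h, against 7.38, 6.60 and 7.54 at 12 h D-F, a rise of 1.78 (limma adjusted p = 0.000274). At 48 h against 36 h it rose by 2.14. Its change of -1.21 at 60 h against 48 h was called (limma adjusted p = 0.0233) with overlapping arrays, and was not called without 48 h A (-1.18), 48 h C (-0.88) or 60 h A (-0.74). Ltbp3 had 0.34 at 72 h, not called, and Ltbp4, which helps elastin assembly, fell by 1.05 (limma adjusted p = 2.52e-12), with all 72 h arrays below all 12 h D-F arrays.

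Fbln2, Lox and Loxl1 rose by 72 h. Fbln2 (fibulin-2) read 10.72, 9.73 and 11.36 at 72 h, against 8.60, 8.29 and 9.00 at 12 h D-F, a rise of 1.98 (limma adjusted p = 0.000345). Lox, the lysyl oxidase that cross-links collagen and elastin, read 11.06, 9.93 and 11.13 at 72 h, against 8.69, 7.87 and 9.13 at 12 h D-F, a rise of 2.14 (limma adjusted p = 5.59e-05). At 48 h against 36 h, Lox rose by 2.23, Loxl1, its relative that binds elastin, by 1.50 and Fbln2 by 1.69, and without 48 h C Fbln2 had 1.15 and was not called. When probe sets were averaged, the 72 h rises were 1.02 for Fbln2, 1.39 for Lox and 1.19 for Loxl1, and those at 48 h 0.89 for Fbln2 and 1.47 for Lox. Their r to Fbn2 was 0.802 for Fbln2, 0.679 for Lox and 0.774 for Loxl1, against 0.988, 0.955 and 0.960 to the collagen mean.

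Fbln5 (fibulin-5), which brings elastin to microfibrils, rose by 1.81 at 24 h A-C against 8 h (limma adjusted p = 0.000139), and by 0.82 with its probe sets averaged. In D-F it had -0.08 at 24 h against 12 h, not called. Its mean was 6.37 ± 0.40 in 24 h D-F and 8.26 ± 0.14 in 24 h A-C (SD, n = 3 each), lower by 1.89 in D-F (limma adjusted p = 0.000112), the opposite direction to Fbn2 in that comparison. Eln itself, the gene of elastin, fell by 0.30 at 72 h against 12 h D-F (6.55 against 6.86, limma adjusted p = 0.0125). That call ended with the mean of the gene's probe sets (-0.11).

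Other matrix and processing genes filled the rest of the list. Bgn, the proteoglycan biglycan, rose by 1.38 at 72 h against 12 h D-F with overlapping arrays, a call that ended without 72 h C (1.05), and Fn1, the fibronectin on which fibrillin fibres assemble, rose by 0.93. Vcan, the proteoglycan versican that binds fibrillin, rose by 1.17. Hspg2 (perlecan) rose by 0.58, and Furin, the protease that trims profibrillin at both ends, by 0.79. Adamts6 and Adamts10, metalloproteases tied to fibrillin microfibrils, rose by 1.65 and 0.78. Averaged probe sets gave rises of 0.62 for Fn1, 0.42 for Vcan, 0.88 for Hspg2 and 0.44 for Adamts10. Adamtsl2, Adamtsl3, Adamtsl4 and Adamtsl5 had -0.11, -0.13, -0.14 and 0.09 and were not called.

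**Figure D4:**
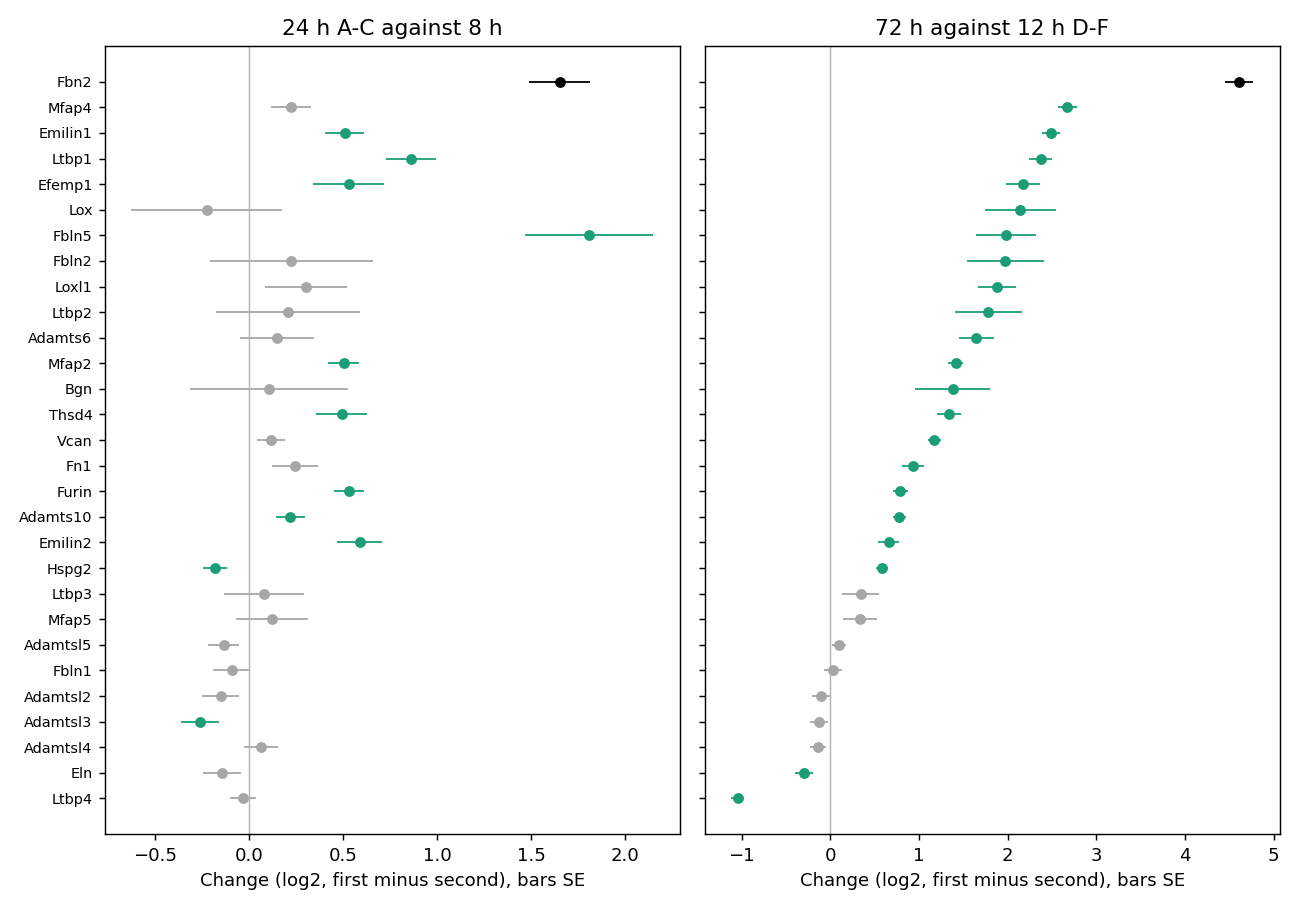
Changes of Fbn2 and the 28 microfibril genes, as log2 differences with SE bars, at 24 h A-C against 8 h (left) and 72 h against 12 h D-F (right), ordered by the right panel. Green is called at a limma adjusted p under 0.05, grey is not called, and Fbn2 (black) was not tested. On the right 19 genes lie above 0 in green, with Fbn2, chosen for its large rise, furthest out at 4.61.

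Of the 28 genes, 18 had group means spanning at least 1 log2. Of these 18, 6 had a higher r to Fbn2 than to the collagen mean (Mfap2, Thsd4, Emilin1, Efemp1, Emilin2 and Vcan), 11 had a higher r to the collagen mean, and Ltbp4 was negative to both. For 8 of the 18 the values differed by less than 0.107, the SD over single arrays of the r of Fbn2 to the collagen mean. That SD is not the spread of such a difference. Among the 8 were Efemp1 (0.937 against 0.920), Emilin1 (0.952 against 0.875) and Vcan (0.719 against 0.620). Mfap4 (0.874 against 0.903) and Ltbp1 (0.891 against 0.898) were also among them. With 1 array taken per group, 11 of the 18 stayed on the same side in all 3 draws, Mfap2, Thsd4, Emilin1 and Vcan nearer Fbn2 and 7 nearer the collagens. Efemp1 stayed nearer Fbn2 in 1 of the 3 draws. None of the 8 collagens was nearer Fbn2 than to the mean of the others. At 60 h against 48 h, 3 of the 28 rose (Mfap2, Ltbp1 and Emilin1, by 0.48 to 0.64) and 7 fell, where 9.37% of all genes rose and 13.8% fell. Fitted on the 48 h and 60 h arrays alone, limma called 0 of the 28 at that step and 813 of all genes.

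Ligands that microfibrils hold, and their receptors, were mostly higher by 72 h. Of 19 ligands, receptors and integrins, 14 rose and 1 fell at 72 h against 12 h D-F, with a median of 1.24. Over all genes, 26.2% were higher there and 34.5% lower. Tgfb2 and Tgfb3 rose by 3.04 and 2.51 (limma adjusted p = 1.81e-13 and 2.56e-13), while Tgfb1 had -0.23, not called. Bmp5, whose prodomain is known to bind fibrillin, rose by at least 2.71, since its mean of 3.63 at 12 h D-F lay below the lower quartile of every array, and its probe sets averaged gave a rise of 1.30. Bmp2 and Bmp7 each rose by 1.42, and Bmp4 fell by 0.44. Bmp4 was not called without 12 h D-F E (-0.29) or 72 h C (-0.37). Bmp4 also fell by 1.30 at 24 h A-C against 8 h. Gdf5, a growth factor of joints, had -0.32 at 72 h, not called.

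The 3 TGF-beta receptors rose. Tgfbr1, the type I TGF-beta receptor, rose by 1.24, Tgfbr2, the type II receptor, by 1.66 and Tgfbr3 (betaglycan) by 1.24 at 72 h against 12 h D-F. With the mean of a gene's probe sets these rises were 0.56, 0.46 and 0.46, all called. Tgfbr1 had r = 0.975 to Fbn2 and 0.817 to the collagen mean, and Tgfbr2 had 0.804 and 0.929. Of the integrins, which bind the RGD site of fibrillins or release latent TGF-beta, Itga8 rose by 2.34, Itgb8 by 2.23, Itgav by 1.53, Itga5 by 1.00, Itgb1 by 0.90 and Itgb5 by 0.42, and Itgb3 and Itgb6 had 0.15 and -0.08, not called. With the mean of probe sets Itgav rose by 0.51, Itga5 by 0.41 and Itgb1 by 0.31. Itga8 was also higher in D-F than in A-C by 1.09 at both 12 h and 24 h.

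Genes listed as targets or regulators of TGF-beta signalling mostly rose in both comparisons. Of 10 such genes, 9 rose and 1 fell at 72 h against 12 h D-F, with a median of 0.89, where 26.2% of all genes were higher. At 24 h A-C against 8 h, 6 rose and Smad7 fell by 0.38 (change -0.38), where 23.5% of all genes were higher. Tgfbi, a secreted adhesion protein, averaged 11.92 ± 0.05 at 72 h and 7.37 ± 0.10 at 12 h D-F (SD, n = 3 each), a rise of 4.55 (limma adjusted p = 3.08e-20). Thbs1, thrombospondin-1, an activator of latent TGF-beta, rose by 1.86, Cdkn1a, the cell cycle inhibitor p21, by 1.84 and Ccn2, a matricellular growth factor, by 0.99. Smad7 and Smad6, feedback inhibitors of the pathway, rose by 0.39 and 0.78 at 72 h, and Skil, a co-repressor, fell by 0.26. With the mean of probe sets Smad7 rose by 0.24 and Skil fell by 0.58. Ski, the relative of Skil, rose by 0.18 at 72 h, a call that was lost in 3 of 15 other settings. Its change was 0.0019 with arrays centred again and 0.058 with 8 times and the array set as a block. Cdkn1a and Ccn2 answer other signals too, and Ltbp2 is on both this list and the microfibril list.

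By the same measure over all genes spanning at least 1 log2, the 5 genes most like Fbn2 were Zfand3, Atp2b1, Tshz1, Grip1 and Ckap4, with r of 0.995, 0.995, 0.995, 0.994 and 0.993 over 10 group means. None encodes a known microfibril component. Tshz1, a zinc finger transcription factor, read 11.69, 11.36 and 11.40 at 72 h, against 7.74, 7.81 and 7.76 at 12 h D-F, higher by 3.71. The other 4 spanned 1.27 to 2.12 log2 over the groups, so they share the shape of the Fbn2 curve and not its size. In all 258 genes had an r of at least 0.95, and the order at the top separates values that differ by little.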

How the data were processed

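The values are log2 intensities deposited by the authors for 45101 probe sets on 30 arrays, and limma 3.8.3 is named in the submitters' processing notes. Background correction, probe summary and normalization are not given in the sources used here. Lower quartiles of the arrays lay between 4.73 and 4.853, there are no detection calls, and a change from a mean under 4.73 is written as "at least". The 64 controls, the 9160 probe sets lacking a symbol and the 932 carrying more than 1 were set aside. The probe set with the highest mean was kept per gene. No filter and no further normalization was applied. No 2 of the arrays within a group were identical (30 pairs compared).

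All 30 arrays were fitted in 1 limma 3.58.1 model (R 4.3.3) with 10 groups, eBayes without trend, two-sided, with Benjamini-Hochberg adjustment over 18193 genes. Changes are differences of group means with the SE of the fit. Nothing in the labels says that the replicates are separate cultures. The p-values therefore measure the spread between these arrays only, which may be technical, and precision is limited by how many arrays there are. Likeness is Pearson's r over the 10 group means, each centred on the mean of its array set. The fit was tested on simulated data. The gene, the lists and the rule for naming genes (any member of the microfibril, collagen, growth factor and TGF-beta target lists, up to 4 of each other list by change, and the 5 genes most like Fbn2) were chosen with earlier results of these data known. Same-letter arrays deviated together most at 48 h against 36 h (r from 0.148 to 0.176 over 3 letters), so the letter was a block there as an alternative. In the 3 other comparisons checked, r ran from -0.106 to 0.137. Among these, all 3 letters were positive at 24 h D-F against 12 h D-F (0.0705 to 0.137). The planned test of the difference of changes between letters is given as values without a test, since it holds a rise that chose the gene. Planned results for Fbn1 and a motif search in promoters were not done.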

Additional observations from a re-analysis of the deposited data

How the results depend on the processing

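The sign of the small Fbn2 difference at 72 h against 60 h turned with single arrays left out (-0.13 to 0.01). At 72 h against 12 h D-F its change was 4.44 with arrays centred again and 4.35 on the other probe set (chosen after seeing the data), which gave 0.92 at 24 h A-C against 8 h. The difference at 12 h between D-F and A-C was 0.32 on that probe set, not called, and the difference of the changes was 0.86 with the mean of the probe sets, 0.63 with array weights, 1.20 on the other probe set and 0.37 to 0.73 without single arrays. The r of Fbn2 to the collagens was 0.39 in set 1 alone. Centring over the 18193 genes shifted changes by 0.19 at 24 h A-C against 8 h and 0.18 at 72 h against 12 h D-F, and gave 10937 calls at 24 h A-C against 8 h, where 7154 were called before, with 7 microfibril genes lower there, 5 at 72 h against 12 h D-F and 1 at 12 h between letters. Of called genes, the share higher was then 21.7% at 24 h A-C against 8 h (59.8% without centring, 46.5% with quantile normalization), 25.5% at 72 h against 12 h D-F (43.2% without), 47.4% at 48 h against 36 h (34.4%), 57.1% at 12 h (44.2%) and 54.4% at 24 h (39.4%) between letters. Microfibril genes lower at 24 h A-C against 8 h numbered 1 with dim genes left out, every probe set fitted, trend and robust, only the groups compared, or 8 times with the array set as a block. With the mean of probe sets 1 was lower at 72 h and 1 at 24 h between letters. With only the groups compared, 1953 genes were called at 48 h against 36 h (4015 in all groups) and 813 at 60 h against 48 h (4213), with microfibril genes lower 1 at 48 h (also 1 with 8 times), 0 higher and 0 lower at 60 h and 4 lower at 12 h between letters, and collagens 5 higher at 24 h A-C, 0 lower at 60 h, 2 lower at 12 h and 1 higher at 24 h between letters. Array weights gave 5 microfibril genes higher and 1 collagen lower at 60 h, 1 collagen lower at 12 h and 1 higher at 24 h between letters, the last also with quantile normalization. Without single arrays, collagens higher at 48 h numbered 5 to 8 and lower at 60 h 0 to 4, and microfibril genes lower at 60 h 3 to 6, lower at 24 h A-C 0 to 2, and higher 4 to 7 and lower 1 to 2 at 12 h between letters. The replicate block over all groups gave 1.22 at 12 h and 1.73 at 24 h between letters, changed no call of Fbn2 and moved no list count by over 1.5 times. The replicate block on the 36 h and 48 h arrays alone, chosen after seeing the data, gave 1 microfibril gene lower and 1920 calls. Of the called genes of the collagen, microfibril, growth factor and TGF-beta target lists, 48 of 52 at 72 h against 12 h D-F kept the call under the settings tried, 28 of 44 at 48 h against 36 h, 16 of 27 at 24 h A-C against 8 h and 3 of 29 at 60 h against 48 h. Skil, 0.18 at 60 h against 48 h, was -0.06 with the mean of probe sets. Causes were not tested.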
